A study of Mus musculus with 8 samples.

Results

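Tanycytes and ependymal cells line the third ventricle of the hypothalamus, and 9 genes that mark them (Vim, Nes, Dio2, Rax, Crym, Foxj1, Gpr50, Ppp1r1b and Tmem212) were followed in hypothalamus RNA of high and low weight gainers. The genes were taken by symbol from probes annotated to exactly 1 gene. Of the 9 genes, 7 had such a probe, among 13840 genes named by 14411 such probes, and Nes and Tmem212 had none. Their numbers on the array were 660384 for Foxj1, 914228 for Vim, 764179 for Crym, 922636 for Ppp1r1b, 738397 for Dio2, 341709 for Rax and 699009 for Gpr50. No position in the genome is given, because the sources used here name no genome build for the probes.

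Mice of both groups were singly housed males of the inbred strain C57BL/6J with no engineered allele, young adult when the high-fat diet began. Both groups received a high-fat diet for 6 weeks, a low-fat diet for 2 weeks and the high-fat diet for a further 6 weeks. In the study's account of this schedule, the low-fat diet was restricted in amount. The groups differed in how much weight they gained. RNA of 20 high gainers made up 1 pool and RNA of 20 low gainers the other, and each pool was measured on 4 arrays. These are technical replicates, so each p-value below sets the difference between 2 pools against the spread between arrays and says nothing of the spread between mice.

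Ciliated ependymal cells form the ventricle wall and move cerebrospinal fluid with their cilia. Tanycytes replace them along the floor and lower walls of the third ventricle, where they send a long process into the arcuate nucleus or the median eminence. They take up and convert thyroid hormone, sense glucose, carry leptin and other blood-borne signals toward the arcuate neurons, and keep features of the radial glia from which they arise. In bulk tissue, fewer cells of a type and less RNA per cell cannot be told apart.

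The values are deposited normalized intensities in arbitrary units, and an empty cell is called no value here, not zero. Between 13657 and 16873 of 33012 probes had a value on a given array, with array medians between 0.714 and 1.05. Low gainer array 2 did not follow the others. The log2 of its deposited intensities correlated with that of the other arrays at an r between 0.227 and 0.241 over 5375 probes. Among the other 7 arrays r was 0.943 to 0.987 over 11169 probes, on log2 values that were quantile-normalized again. These correlations are across probes, which are not independent replicates. That array is shown apart. The groups were compared over the 4 arrays of high gainers and arrays 1, 3 and 4 of low gainers, and values are given in that order. In that comparison, by limma at an adjusted p of 0.05, 3 of 11169 probes were called, all higher in high gainers. They encode the anterior pituitary hormones Gh (11.2-fold), Cga (7.42-fold) and Prl (6.35-fold). Of the genes on a list of hypothalamic neuron markers, 19 of 24 had a probe and 13 had a value on all 7 arrays.

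The 7 genes fell apart by whether they were measured. Foxj1, Vim, Crym and Ppp1r1b had a value on all 7 arrays, Dio2 on 1 of them, and Rax and Gpr50 on 0. Over all single-gene probes, 43.9% had a value on all 7 arrays, 34.6% on some and 21.4% on none. Every member probe had a value on low gainer array 2, as did 42.5% of single-gene probes and 39% of those without a value on the other 7 arrays. No member had values throughout 1 group and none in the other. That pattern was also rare over all single-gene probes, at 0.0278% for values only on the 4 high gainer arrays and 0.0416% for values only on the 3 low gainer arrays.

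**Figure D1:**
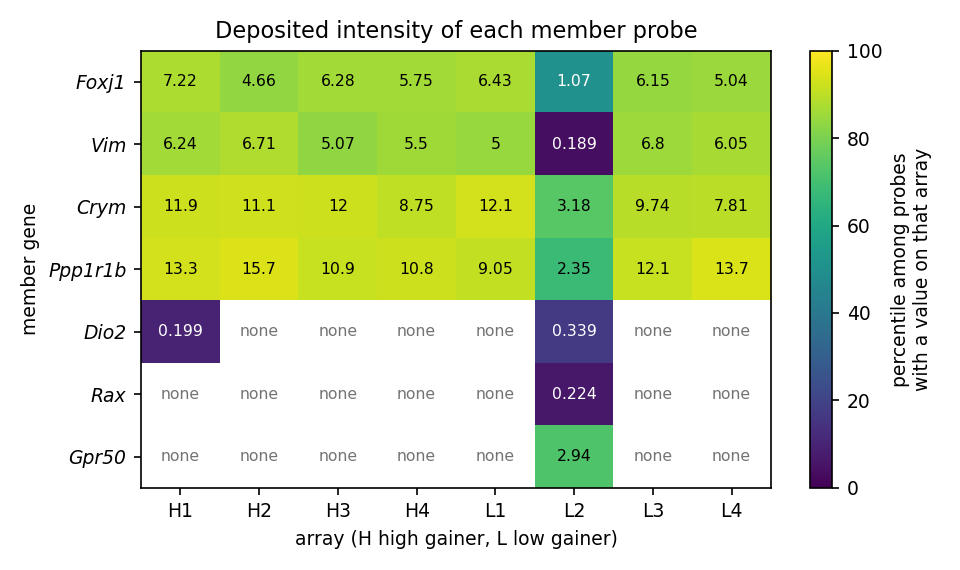
Deposited normalized intensity (numbers, arbitrary units) of the 7 member probes (rows) on each of the 8 arrays (columns; H high gainer, L low gainer), colored by percentile among probes with a value on that array; "none" marks an empty cell. The upper 4 genes have a value on every array, and Rax and Gpr50 have one on low gainer array 2 alone.

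Rax is a homeobox transcription factor that defines hypothalamic tanycytes in the adult, and its probe had no value on any of the 7 arrays. Gpr50, an orphan receptor related to the melatonin receptors and found in tanycytes, was likewise without a value on all 7. Dio2 encodes the type 2 deiodinase, which converts thyroxine to the active hormone T3 in tanycytes and astrocytes. Its intensity was 0.199 on high gainer array 1, at percentile 9.53 of the values on that array, and it had no value on the other 3 high gainer arrays or on the 3 low gainer arrays. With values on at most 1 of the 7 arrays, no difference between the pools could be tested for Dio2, Rax or Gpr50.

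Foxj1 encodes the transcription factor that drives the program of motile cilia and marks ependymal cells. Its intensity was 7.22, 4.66, 6.28 and 5.75 in high gainers. In the compared low gainer arrays it was 6.43, 6.15 and 5.04. The highest and the lowest of these values were both on high gainer arrays, with all 3 low gainer values between them. The mean was 5.98 ± 1.07 (SD, n = 4) in high gainers and 5.87 ± 0.736 (SD, n = 3) in low gainers. The fitted fold of high over low gainers was 1.02, with a 95% interval from 0.777 to 1.34 and an adjusted p of 0.989 by limma.

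Vim encodes vimentin, the intermediate filament protein of tanycytes, ependymal cells and vascular cells. High gainers gave 6.24, 6.71, 5.07 and 5.503, and the compared low gainer arrays gave 5.004, 6.80 and 6.05. Here the extremes were both on low gainer arrays. Means were 5.88 ± 0.735 (SD, n = 4) and 5.95 ± 0.903 (SD, n = 3) in high and low gainers. The fitted fold was 1.00, with a 95% interval from 0.770 to 1.30 and an adjusted p of 0.998 by limma.

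Crym encodes mu-crystallin, a cytosolic protein that binds T3 and is found in tanycytes and in neurons of the forebrain. Its intensities were 11.9, 11.1, 12.0 and 8.75 in high gainers and 12.1, 9.74 and 7.81 in the compared low gainer arrays. The lowest value of each group lay on its array 4, and the groups overlapped. The mean was 10.9 ± 1.51 (SD, n = 4) in high gainers and 9.88 ± 2.14 (SD, n = 3) in low gainers. The fitted fold of high over low was 1.13, with a 95% interval from 0.860 to 1.49 and an adjusted p of 0.902 by limma.

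Ppp1r1b encodes DARPP-32, a phosphatase inhibitor regulated by dopamine and cyclic AMP that is present in tanycytes and abundant in striatal neurons. High gainers gave 13.3, 15.7, 10.9 and 10.8, and the compared low gainer arrays gave 9.05, 12.1 and 13.7. The top value was on high gainer array 2 and the bottom value on low gainer array 1, with overlap between the groups. Means were 12.7 ± 2.31 (SD, n = 4) and 11.6 ± 2.35 (SD, n = 3). The fitted fold was 1.09, with a 95% interval from 0.816 to 1.46 and an adjusted p of 0.939 by limma.

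**Figure D2:**
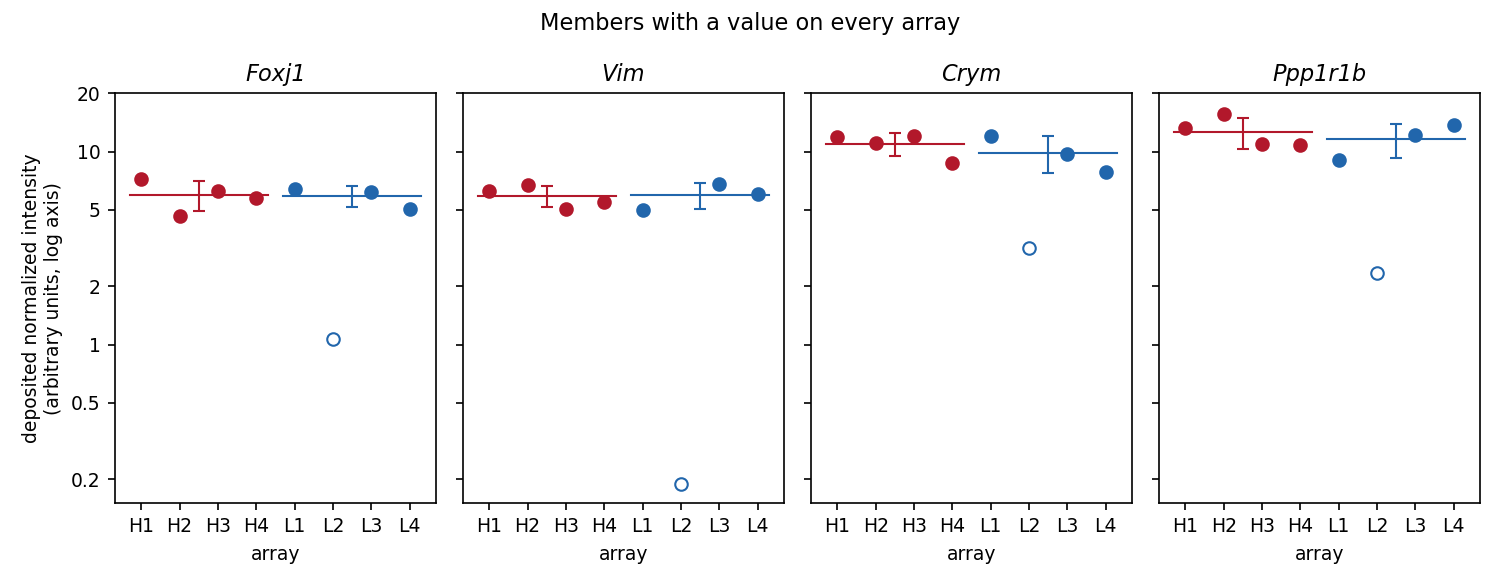
Deposited normalized intensity (arbitrary units, log axis) of Foxj1, Vim, Crym and Ppp1r1b on each array, in red for high and blue for low gainers; lines and bars are the mean and SD of the 4 high gainer arrays and the compared low gainer arrays, and the open circle is low gainer array 2, left out of the mean. For each gene the filled points of the pools overlap, and the open circle lies below all of them, at 1.07, 0.189, 3.18 and 2.35.

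None of the 4 measured members was called. By limma 0 of 4 had an adjusted p under 0.05, beside 0.0269% of all probes. The methods' t-test called 0 of all 11169 probes after adjustment, so its 0 members called says nothing of the members. An unadjusted p under 0.05 was reached by 0 of 4 members and by 724 of 11169 probes, or 6.48%. With all 8 arrays 0 of 4 were called as well, beside 0.0186% of 5375 probes. In 0 of 4 did the arrays of the pools not overlap on the normalized scale, beside 4.77% of all 11169 probes. The upper 95% limits of the folds were 1.30 for Vim, 1.34 for Foxj1, 1.46 for Ppp1r1b and 1.49 for Crym. The lower limits ran from 0.770 to 0.860. These limits hold with low gainer array 2 left out. With all 8 arrays the upper limits were 9.75 for Vim, 3.13 for Ppp1r1b, 2.84 for Foxj1 and 2.48 for Crym. The SD between arrays of the same pool, on the log2 scale, was 0.20 for Vim, 0.23 for Foxj1, 0.26 for Crym and 0.30 for Ppp1r1b, where the median over all probes was 0.28. The members were thus measured with about the spread of a typical probe. The size of the Vim difference exceeded that of 0.349% of probes and the size of the Crym difference that of 52.5%.

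**Figure D3:**
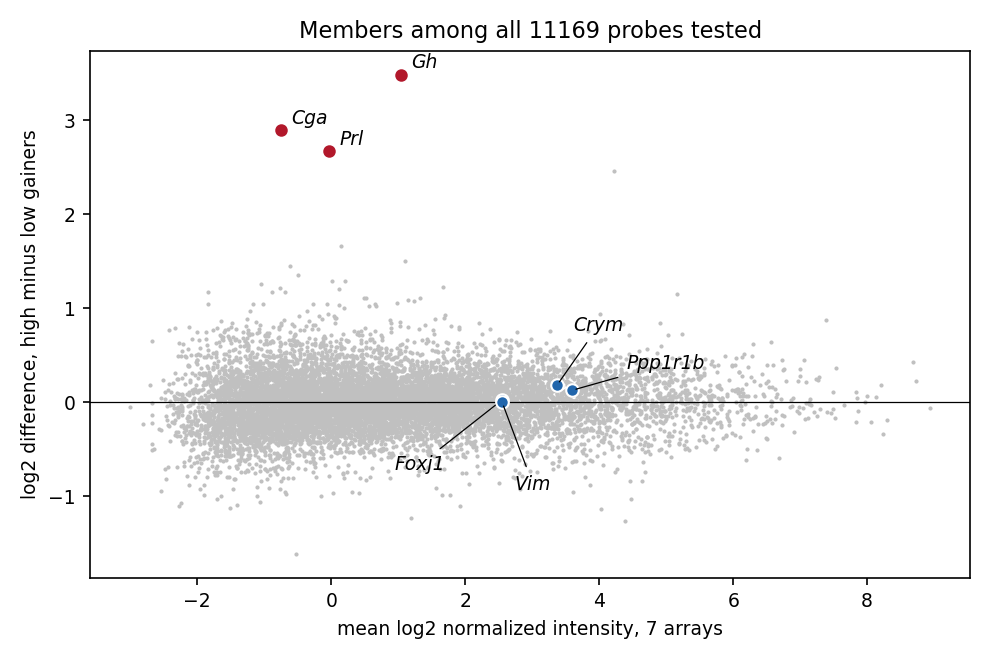
Log2 difference, high minus low gainer pool (vertical) against mean log2 normalized intensity over 7 arrays (horizontal) for 11169 probes in grey, with the 4 measured members in blue and the 3 called probes in red. The members lie between 0.00 and 0.18 on the vertical axis, with Foxj1 and Vim on nearly the same spot, and Gh at 3.48.

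The measured members followed different patterns from array to array. Over the 7 arrays Vim and Ppp1r1b had a Pearson r of 0.82 and Foxj1 and Crym an r of 0.49. Between Foxj1 and Ppp1r1b it was -0.56, and between Foxj1 and Vim -0.36. Crym had an r of -0.18 with Vim and of -0.15 with Ppp1r1b. High gainer array 2 had the lowest Foxj1 and the highest Ppp1r1b of the 7 arrays. The arrays share 2 RNA pools, so these values describe arrays and not animals.

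Among 6331 other single-gene probes, the patterns most like that of Foxj1 over the 7 arrays were those of Trpv2, Slc39a4 and Uckl1, with an r of 0.99, 0.98 and 0.97. For Vim they were those of Psma7, Med16 and Rbck1, with an r of 0.99, 0.96 and 0.96. For Crym they were Zfp346, Rasgrp2 and Cds1, at 0.98, 0.97 and 0.95, and for Ppp1r1b Glrb, Lztr1 and Slc25a22, at 0.97, 0.96 and 0.96. Between 19 and 49 probes had an r over 0.9 with a given member. The named r are the highest of 6331 over only 7 arrays, and how high chance alone would reach was not tested. No member was among the 3 genes named for another.

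Further tanycyte genes were read from a longer list. Of 36 genes on it, the tanycyte members included, 29 had a probe, 13 had a value on all 7 arrays, 11 on some and 5 on none. Those without a value were Rax, Gpr50, Notch2, Vcan and Slc17a8. Of the 13 tested genes, 5 lay above and 8 below zero, where 3148 of all 6170 genes tested lay below zero. The median log2 difference of the list was -0.09, against -0.0024 over all probes. The median was -0.0081 without low gainer array 4 and -0.14 without low gainer array 3. None was called by limma, and 0 had an unadjusted p under 0.05. The smallest p among them belonged to Cd59a, an inhibitor of complement lysis that is enriched in tanycytes. Its intensity was 1.02, 1.72, 1.27 and 1.07 in high gainers and 1.45, 1.47 and 2.43 in the compared low gainer arrays. High gainer array 2 lay above low gainer arrays 1 and 3, so the groups overlapped. The fold of high over low was 0.714, with a log2 interval from -0.99 to 0.02 and an adjusted p of 0.756 by limma. Fabp7, a fatty acid binding protein of radial glia, had a mean of 6.24 ± 0.883 (SD, n = 4) against 7.29 ± 2.35 (SD, n = 3), with 10.01 on low gainer array 3 alone above the others.

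Lhx2, a homeobox factor needed for tanycyte development, had values of 0.434, 0.236, 0.254 and 0.320 in high gainers. On low gainer arrays 1 and 4 it had 0.0836 and 0.329, and on low gainer array 3 no value. In the fit that kept probes with missing values, its log2 difference was 0.72, with an interval from -0.39 to 1.82 and an adjusted p of 0.941 by limma. Of the other genes that lie in tanycytes together with astrocytes, Sox2 had a log2 difference of -0.09 and Ptn of -0.09.

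Tanycytes supply the hypothalamus with T3, and 25 genes of thyroid hormone transport, conversion, binding and action were read together. A probe was found for 19, and 9 had a value on all 7 arrays. Above zero were 3 and below zero 6, where 3148 of all 6170 genes tested lay below zero. The list's median log2 difference was -0.06, which was 0.02 without low gainer array 4 and -0.15 without low gainer array 1. None was called by limma, and 0 had an unadjusted p under 0.05. Among transporters, Slco1c1, which carries thyroxine across the blood-brain barrier and into astrocytes and tanycytes, had intensities of 1.46, 1.66, 1.28 and 1.06 in high gainers. In the compared low gainer arrays it had 1.43, 1.47 and 2.12. High gainer array 2 lay above low gainer arrays 1 and 3, and the fold of high over low was 0.812, with an adjusted p of 0.843 by limma. Among the deiodinases, Dio3, which inactivates thyroid hormone, had no value on the 7 arrays, and Dio1 had a value on 1. Among receptors, Thra, the T3 receptor alpha, had 5.67, 4.999, 3.93 and 4.63 in high gainers and 2.79, 2.17 and 6.10 in the compared low gainer arrays. Low gainer arrays 1 and 3 lay below every high gainer array, and low gainer array 4 above every one. Its fold of 1.42 had a log2 interval from -0.08 to 1.10 and an adjusted p of 0.787 by limma. Thrb, the T3 receptor beta, had a value on high gainer array 2 alone of the 7 arrays. Hr, a known T3 target gene, lay at -0.19 on the log2 scale (95% interval -0.82 to 0.44). Ttr, the thyroxine carrier made by the choroid plexus, had a mean of 285 ± 19.3 (SD, n = 4) against 325 ± 57.8 (SD, n = 3), with a fold of 0.794 and an adjusted p of 0.793 by limma.

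The ciliated ependymal list, which holds Foxj1 and Tmem212 and is made up mostly of parts and regulators of motile cilia, had more genes below than above zero in the high gainer pool, with no gene called. Of 84 genes, 44 had a probe, 20 had a value on all 7 arrays, 18 on some and 6 on none. Of the 20 tested, 14 were below and 6 above zero, where 3148 of all 6170 genes tested lay below zero. The list's median log2 difference was -0.18. By limma 0 had an adjusted p under 0.05 and 2 of 20 an unadjusted p under 0.05, beside 6.48% of all probes. Foxj1 itself, at 0.03, was among the 6 above zero, as was Tppp3, a tubulin-binding protein of cilia, at 0.16. The median shifted with single arrays. It deviated from the mean of 7 arrays by 0.36 on low gainer array 3 and 0.11 on low gainer array 4. On low gainer array 1 it deviated by -0.15, which is lower than on any high gainer array, where it ran from -0.14 to -0.05. The list's median difference was -0.04 without low gainer array 3 and -0.26 without low gainer array 1.

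Efhc2, an EF-hand protein of the ciliary axoneme, was the 1 gene of this list without overlap between the pools, where 2.7% of all probes had all high gainer arrays below all low gainer arrays. Its intensity was 0.863, 0.874, 0.871 and 0.914 in high gainers and 1.19, 1.749 and 1.34 in the compared low gainer arrays. The fold of high over low was 0.622, with a log2 interval from -1.15 to -0.22 and an adjusted p of 0.7503 by limma. Pifo, which acts in disassembly of the primary cilium, had 0.157, 0.187, 0.185 and 0.221 in high gainers. In low gainers it had 0.148 on array 1, below every high gainer array, and 0.445 and 0.482 on arrays 3 and 4, above every one. Its fold was 0.544, with an adjusted p of 0.756 by limma, and without low gainer array 1 its log2 difference was -1.43 and its adjusted p 0.0431 by limma, where its adjusted p ran from 0.399 to 0.999 under the other alternatives.

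Rarres2, which encodes the secreted attractant chemerin and is made by tanycytes and ependymal cells, had 1.66, 1.73, 1.53 and 1.72 in high gainers. It had 1.61 on low gainer array 1, within that range, and 2.77 and 2.42 on low gainer arrays 3 and 4, above it. The fold was 0.752 and the adjusted p 0.777 by limma. Nme5, a nucleoside diphosphate kinase family protein of motile cilia, had a mean of 1.03 ± 0.186 (SD, n = 4) against 1.48 ± 0.460 (SD, n = 3). Its fold was 0.714 and its adjusted p 0.778 by limma. In Pifo and Rarres2, low gainer arrays 3 and 4 held the difference and low gainer array 1 did not.

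**Figure D4:**
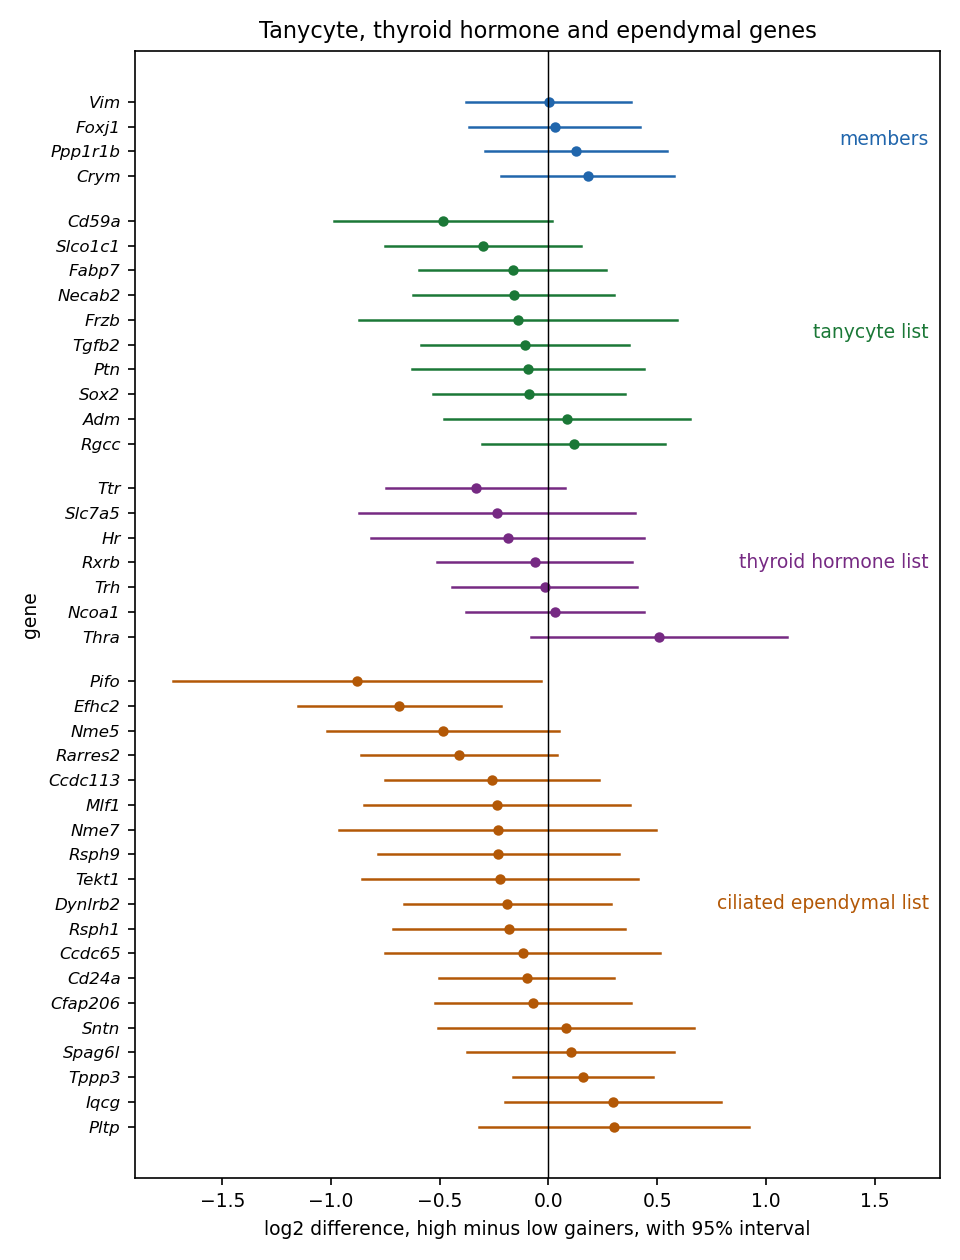
Log2 difference, high minus low gainer pool, with its 95% interval by limma, for the genes tested among the members and the tanycyte, thyroid hormone and ciliated ependymal lists (each gene drawn 1 time, in the first group that holds it). The interval includes 0 for all genes shown except Efhc2 and Pifo, and no gene had an adjusted p under 0.05.

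Markers of neighboring cell types were read in the same comparison, since several members are not specific to tanycytes. Striatal neurons express Ppp1r1b, and all 9 tested genes of a 17-gene striatum list, Ppp1r1b included, lay above zero, as did 3022 of all 6170 genes tested, with a median log2 difference of 0.32 that was 0.20 without low gainer array 1. None was called by limma, and 2 of 9 had an unadjusted p under 0.05, beside 6.48% of all probes, Pde10a at a fold of 2.06 and Gng7 at 1.28. Drd2, the dopamine D2 receptor, was at 1.35 and Bcl11b, a transcription factor of striatal projection neurons, at 1.29. In 3 of the 9 all high gainer arrays lay above the compared low gainer arrays on the normalized scale, beside 2.07% of all probes. The summed intensity of the 9 genes ran from 55.1 to 68.5 in high gainers and from 52.5 to 53.5 in the compared low gainer arrays. Without Gng7, the brightest of them, the sum ran from 35.3 to 44.4 and from 31.7 to 38.2, and the groups overlapped. Ppp1r1b had the second smallest difference of the 9, and the part of striatal tissue in its value was not tested.

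Vim is also expressed by vascular cells. Of 22 vascular and meningeal genes, 11 were tested, 5 above and 6 below zero, with a median log2 difference of -0.0024, and of -0.08 without low gainer array 3 and 0.11 without low gainer array 1. None was called by limma, and 0 had an unadjusted p under 0.05. The smallest p-values were those of Rgs5 (fold 0.672), Kcnj8 (1.30), Ly6c1 (0.874) and Kdr (1.16). Lum, a collagen-binding proteoglycan of the meninges, had values of 0.352, 0.215 and 0.302 in the compared low gainer arrays and no value on the 4 high gainer arrays. These are low values, where the 10th percentile of all values on the 7 arrays was 0.180. Over all single-gene probes 0.0416% had this pattern, and whether the pools differ in Lum was not tested.

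Astrocytes share several tanycyte genes. Of 22 astrocyte genes, 16 were tested, 9 above and 7 below zero, with a median log2 difference of 0.11, which was -0.011 without low gainer array 3 and 0.22 without low gainer array 4. None was called by limma, and 1 of 16 had an unadjusted p under 0.05, beside 6.48% of all probes. It was Sox9, a glial transcription factor, at a fold of 1.95 and an adjusted p of 0.7503. Its intensities on the 7 arrays ran only from 0.164 to 0.664. Sox9 was the 1 gene of the 16 with all high gainer arrays above the compared low gainer arrays, beside 2.07% of all probes. Slc1a2 was at 0.655, Aldoc at 1.19 and Apoe at 1.28. The choroid plexus borders the ependyma. Of its 21 genes, 11 were tested, 3 above and 8 below zero, where 3148 of all 6170 genes tested lay below zero. The median log2 difference was -0.18, which was -0.11 without low gainer array 3 and -0.28 without low gainer array 1. None was called by limma and 1 of 11 had an unadjusted p under 0.05, beside 6.48% of all probes, the water channel Aqp1 at 0.625. Otx2 was at 0.821 and Sostdc1 at 1.27. In 2 of the 11, Aqp1 and Otx2, all high gainer arrays lay below the compared low gainer arrays on the normalized scale, beside 2.7% of all probes. The summed intensity of the 11 genes ran from 283 to 325 in high gainers and from 313 to 416 in the compared low gainer arrays, and Ttr made up most of it. Without Ttr the sum of the other 10 ran from 24.2 to 29.1 and from 23.4 to 29.3. The list's median lay below zero, as did that of the ciliated ependymal list, and the part of choroid plexus in the ependymal values was not tested.

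Of the pituitary list, 14 of 19 genes had a probe and 4 were tested, all above zero, with the 3 calls named above. Their summed intensity ran from 39.7 to 45.7 in high gainers and from 25.3 to 34.6 in the compared low gainer arrays, and the median log2 difference was 2.78. Without Chgb, a secretory granule protein of many endocrine and nerve cells, the sum ran from 8.30 to 10.4 and from 0.837 to 1.38. With missing values kept, 7 of the 14 genes were tested and their median was 0.23. Of the 13 hypothalamic neuron genes tested, 12 lay below zero, as did 3148 of all 6170 genes tested, with a median of -0.23. By limma 0 were called and 3 of 13 had an unadjusted p under 0.05, beside 6.48% of all probes. In 1 of the 13 all high gainer arrays lay below the compared low gainer arrays, beside 2.7% of all probes. Tanycytes of the median eminence lie next to the pituitary stalk. How the dissected tissue bears on the members was not tested.

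**Figure D5:**
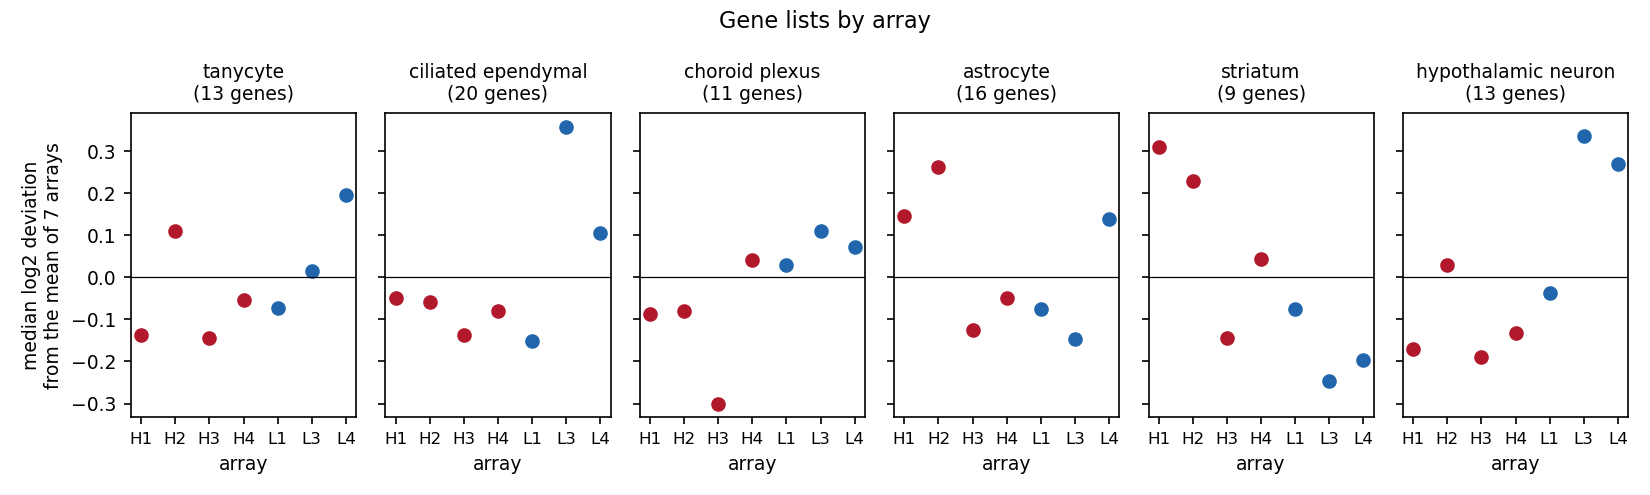
For 6 lists, the median over genes of how far each gene's log2 value lay from its average across the 7 arrays, with each array drawn as a point in red for high and blue for low gainers. The ciliated ependymal median was -0.15 for low gainer array 1 and 0.36 for low gainer array 3, and the striatum median was 0.31 on high gainer array 1 and -0.25 on low gainer array 3.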

How the data were processed

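Hypothalamus RNA pools of 20 mice per group were measured on 8 arrays, 4 per pool. Digoxigenin-labeled cRNA was hybridized by the authors to a 1-color Applied Biosystems mouse array, detected by chemiluminescence and quantile-normalized. The deposited values are intensities on a linear scale. The methods counted a feature as detected by its signal to noise and quality flag before their test, and whether that filter left the empty cells is not stated. Groups came from the sample titles.

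Gene names came from the platform annotation, which gave 1 gene for 14411 probes, several for 247 and none for 18354, and 14402 matched a RefSeq gene of assembly GRCm38.p6. For the 11169 probes measured on all 7 arrays, log2 intensities were quantile-normalized again and fitted with limma 3.58.1 in R 4.3.3 with an intensity trend, adjusting p-values over all probes by Benjamini-Hochberg at 0.05. Low gainer array 2 was left out by choice of comparison. A list used the brightest probe of each gene. Folds are fitted values, and means ± SD are of deposited values. Precision is limited by how few arrays there are. The fit was tested on simulated data with known changes, drawn independently for each probe. Those data held no effect shared by the probes of an array, so that test does not cover such effects.

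The members, lists and tests were chosen with earlier results of these data known. Named were all members, and of each list the genes called, up to 4 with the smallest p and those with values throughout 1 pool only; likeness used the 3 highest r. Other genes named singly (Lhx2, Sox2, Ptn, Hr, Dio1, Dio3, Thrb, Tppp3 and the genes without a value) were chosen after their values were seen. Alternatives were all 8 arrays, median centring, cyclic loess, the deposited values, the brightest 50% of probes, missing values kept with at least 2 values per pool, a pseudocount of 0.180 (the 10th percentile), no trend, array weights, a replicate block, the methods' t-test and leaving out each array.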

Additional observations from a re-analysis of the deposited data

Results flagged for a closer look

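Low gainer array 2 was left out of the comparison of the pools, and it carried values for member probes that the other arrays lacked. Gpr50 had an intensity of 2.94 on it, at percentile 72.7 of that array's values, and a value on 0 of the other 7 arrays. Rax had 0.224, at percentile 6.37, and a value on 0 of the other 7. Dio2 had 0.339 on it, above its only other value, 0.199 on high gainer array 1. Of all single-gene probes without a value on the other 7 arrays, 39% had a value on low gainer array 2, close to the 42.5% of all single-gene probes that had one there. The 4 measured members were dimmer on it than on any other array, from 2.46-fold for Crym to 26.5-fold for Vim under their lowest other value. Genes outside the members also moved far on it, in both directions. Ttr had 0.673 on it and 257 or more on the other arrays, and Acsbg1 had 419 on it and at most 9.22 on the others. The share of all probes that were dimmest on it was not counted, so this is not particular to the members. The largest gap between neighboring arrays at either end of a group of 4, as a share of the group's range, was compared with Dixon's 95% limit in the high gainer group and the whole low gainer group of each measured member. On the log2 scale, added after the data were seen, low gainer array 2 stood apart for Vim, at 0.914, and for Foxj1, at 0.864, and 2 of 8 groups passed the limit. Chance flags about 1 group in 20 when groups are independent. Here every low gainer group held the same array 2, already known to differ, so that rate is no measure for this count. On the linear scale 0 of 8 groups passed, with 0.728 for Vim and 0.741 for Foxj1 in low gainers.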

How the results depend on the processing

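Under every alternative run, 0 of 4 measured members were called, and every member probe counted as having a value kept it when a value above 0.180, the 10th percentile of all deposited values on the 7 arrays, was asked for. The number of all probes called was 3. It was 4 with median centring and 4 with the pseudocount, and in each 1 of the 4 was lower in high gainers. It was 1 with all 8 arrays and 1 in the brightest 50% of probes. By the methods' t-test it was 0 after Benjamini-Hochberg adjustment, with 9 higher and 10 lower at the p and fold limits of the methods. Leaving out 1 array gave 2 to 171 calls, the 171 without low gainer array 1. Of the tanycyte, thyroid hormone and ciliated ependymal genes, 0 were called, and 0 to 1 when 1 array was left out, the 1 being Pifo without low gainer array 1. The sign of differences near zero changed: Foxj1 was at -0.0098 with array weights and from -0.075 to 0.14 when 1 array was left out. Vim was at -0.029 with median centring, -0.013 with cyclic loess, -0.015 with deposited values, -0.091 with array weights, and from -0.12 to 0.10 when 1 array was left out. Ppp1r1b ran from -0.046 to 0.28 and Crym from 0.04 to 0.34 when 1 array was left out. With all 8 arrays the log2 differences were 0.48 for Foxj1, 1.11 for Vim, 0.47 for Crym and 0.57 for Ppp1r1b, each with an interval that included 0 and an adjusted p of 0.717 by limma. The list medians changed as well in that fit, which tested fewer genes, to 0.36 for the tanycyte and 0.02 for the ciliated ependymal genes. With the replicate number as a block, 9 probes and 0 members were called, and Vim was at -0.073. Arrays of the same number shared only the number, with correlations of their deviations of -0.20, 0.13 and -0.14, and not every array correlated best with its own number. The cause of these changes was not tested. Empty cells limit what can be said of Dio2, Rax and Gpr50.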
